A study of Mus musculus with 8 samples.

Results

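The genes described here are 38 fibroblast and extracellular matrix genes other than collagens, taken as the entries of the deposited count table whose gene name equals a listed symbol, out of 55247 entries in all. Each of the 38 symbols was found, all 38 are protein-coding genes in GENCODE, and 33 passed the filter on low counts that left 11616 entries for testing. The counts come from bulk RNA sequencing of back skin that carried an EL4 tumor, EL4 being a mouse T-cell lymphoma line. The study used this model to ask how bexarotene, which activates retinoid X receptors, acts on cutaneous T-cell lymphoma and on the skin around it. All 8 mice were wild-type (WT) females aged 8 weeks, called C57BL/6J in the sample labels and C57BL/6JJmsSlc in the methods. All of them received 100 μL of EL4 cells at 2000000 cells/mL by injection under the back skin on Day 0. Of these mice, 4 were given 0.1 mg of bexarotene into the peritoneum on Day 14 (Bexarotene 1 to 4) and 4 the vehicle (Vehicle 1 to 4), and the tissue was taken on Day 16. Each library came from 1 mouse, and values given for a group follow the order of mice 1 to 4. No group without a tumor was analysed here, the treatment was a single dose, and the injected cells are lymphoma cells, so fibroblasts in these samples are cells of the host.

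Dermal fibroblasts make and remodel the matrix of the skin. Small leucine-rich proteoglycans such as decorin and lumican bind collagen fibrils and set their spacing, elastin is laid down on a scaffold of fibrillin microfibrils with the help of fibulins, and lysyl oxidases crosslink both collagen and elastin. Fibronectin and the matricellular proteins (periostin, tenascins, thrombospondins, SPARC and the CCN proteins) link cells to this matrix, and fibroblasts that contract it are marked by smooth muscle actin, which vascular smooth muscle also makes.

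The promoters of 22 of the 38 genes were found in a RefSeq table of sequences around annotated starts (GRCm38.p6, unlike the counts, which use GRCm39). Windows from *Acta2*, *Ccn1* and *Postn* are printed because *Acta2* is the most abundant contractile gene, *Ccn1* a textbook target of the YAP and TEAD pathway, and *Postn* the member with the smallest p-value between the groups. Each holds the 250 bases before the start, 5′ to 3′ on the strand of the gene, on chromosome 19 (34255374 to 34255623, minus strand) for *Acta2*, chromosome 3 (145649986 to 145650235, minus strand) for *Ccn1*, and chromosome 3 (54359017 to 54359266 and 54360857 to 54361106, plus strand) for the 2 annotated starts of *Postn*.
Acta2: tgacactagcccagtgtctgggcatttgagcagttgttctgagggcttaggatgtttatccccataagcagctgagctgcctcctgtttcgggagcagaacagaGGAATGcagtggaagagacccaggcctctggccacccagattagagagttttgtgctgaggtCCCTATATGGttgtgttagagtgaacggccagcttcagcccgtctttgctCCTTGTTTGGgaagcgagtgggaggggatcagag
Ccn1: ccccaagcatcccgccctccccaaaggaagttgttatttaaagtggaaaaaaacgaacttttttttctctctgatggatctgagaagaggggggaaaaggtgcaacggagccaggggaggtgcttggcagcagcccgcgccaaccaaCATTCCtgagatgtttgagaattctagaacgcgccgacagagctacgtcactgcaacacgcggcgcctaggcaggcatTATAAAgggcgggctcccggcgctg
Postn, first start: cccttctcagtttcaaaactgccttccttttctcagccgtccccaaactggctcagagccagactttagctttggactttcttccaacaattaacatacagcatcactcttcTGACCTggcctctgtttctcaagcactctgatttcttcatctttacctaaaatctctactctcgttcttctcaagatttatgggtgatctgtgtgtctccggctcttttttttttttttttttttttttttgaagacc
Postn, second start: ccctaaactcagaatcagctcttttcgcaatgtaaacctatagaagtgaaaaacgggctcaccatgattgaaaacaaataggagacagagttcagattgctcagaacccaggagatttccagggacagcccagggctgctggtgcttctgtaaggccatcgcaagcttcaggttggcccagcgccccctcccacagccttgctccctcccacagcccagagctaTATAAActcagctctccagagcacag
Capitals mark the TEAD motif GGAATG, the TATA box TATAAA, the nuclear receptor half-site AGGTCA and boxes that resemble the CArG box bound by serum response factor, each searched on both strands over the 250 bases before and 50 after the start. The CArG-like form allows any base at 1 position of the A/T core and so includes the CArG box itself.

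In *Acta2* the capitals are 1 TEAD motif followed by 2 CArG-like boxes, at bases -84 to -75 and -34 to -25 from the start. In *Ccn1* they are a TEAD motif at -103 to -98, read on the other strand, and a TATA box at -25 to -20. *Postn* holds a half-site at -138 to -133 of its first start, also on the other strand, and a TATA box at -26 to -21 of its second. The TEAD motif was present in 4 of the 22 genes (*Acta2*, *Ccn1*, *Mfap2* and *Nid1*) and in 14.7% of all 32851 windows. The half-site lay in 5 of 22 (*Efemp2*, *Fbln5*, *Mfap2*, *Postn* and *Tnxb*) and in 16.3% of all windows. A DR1 element, in which the half-site is repeated with 1 base between the copies and which retinoid X receptor dimers can bind, lay in 0 of 22 and in 0.0396% of all windows. The TATA box was found in 5 of 22 against 13.6% of all windows, and the GC box GGGCGG, which can lie next to or within other motifs, in 13 of 22 against 35.7%. The CArG box itself was in 0 of 22 and in 1.63% of all windows, and the CArG-like form in 2 of 22 (*Acta2* and *Fbln2*) and in 9.98%. Several genes had more than 1 window, while the share over all windows counts each window once. A match describes the letters in these windows and is no evidence of binding.

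Depth and tissue content differed among the 8 mice. Totals ran from 8518428 to 24020342 counts per library, and protein-coding genes held 9.55% to 19.0% of them in 6 mice but 6.35% in Bexarotene 1 and 4.02% in Bexarotene 2. The 38 genes together had 6717 to 17383 counts in those 6 mice, 1826 in Bexarotene 1 and 585 in Bexarotene 2. At least 10 counts were present for 32 to 37 of the 38 genes in the 6 deeper libraries, for 24 in Bexarotene 1 and for 18 in Bexarotene 2, so low values in the shallow pair carry the largest counting error. Of 7 keratinocyte markers, 4 (*Krt1*, *Krt10*, *Krt15* and *Trp63*) were at 0 counts in Vehicle 4, and *Trp63* was also at 0 in Bexarotene 2. The libraries are labelled skin, and in Vehicle 4 the remaining keratinocyte markers had 38 counts. Some fibroblast genes were present in every mouse: *Pdgfra*, which encodes a receptor for platelet-derived growth factor on dermal fibroblasts, had 12 to 324 counts, and *Dcn*, which encodes decorin, 15 to 939. Others were not: *Fap* was at 0 counts in Vehicle 4 and Bexarotene 2, and *Clec3b* in Bexarotene 1 and 2.

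Mean levels of the members over the 8 mice (in TPM, counts divided by gene length and scaled to the same total in every library) were above 1 for 16 of the 38 genes and under 0.5 for 14. The TPM total includes unnamed regions and the ribosomal RNA gene *Rn18s*, which held 50.8% to 59.8% of the counts of a library. These TPM values are thus lower than on a scale of protein-coding genes alone, by an amount that differs between libraries. Averaged over the 8 mice *Sparc*, at 10.7 TPM, was the most abundant, followed by *Acta2* (9.23), *Tnc* (5.90), *Bgn* (4.66), *Serpinh1* (3.28), *Dcn* (3.22), *Fn1* (2.65), *Lox* (2.38), *Thbs1* (1.99), *Fbln2* (1.61), *Fbn1* (1.44) and *Nid1* (1.31). In Bexarotene 1 and 3 *Acta2* was above *Sparc*, at 2.69 against 2.54 TPM and at 23.3 against 16.4 TPM. The lowest mean was *Pcolce*, which encodes an enhancer of procollagen processing, at 0.0128 TPM. Of protein-coding counts, the 38 genes took 0.395%, 0.470%, 0.293% and 0.323% in the vehicle group and 0.246%, 0.171%, 0.366% and 0.393% in the bexarotene group. The 95% Wilson interval was 0.235 to 0.258 in Bexarotene 1 and 0.158 to 0.185 in Bexarotene 2, below the lowest vehicle value, and Bexarotene 3 and 4 lay within the vehicle range. These intervals cover counting error only, and the 2 groups overlap.

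No member passed edgeR's quasi-likelihood test between the groups. Of the 33 genes tested, 0 had an adjusted p under 0.05, and the background over all 11616 entries was also 0%. The smallest adjusted p of any member was 0.976. By unadjusted p, 0 members were under 0.05, where 2.38% of all entries were higher and 1.3% lower with bexarotene at that level. For 0 members did the values of the groups separate, against a background of 1.41% of entries with every bexarotene-treated mouse higher and 1.42% with every one lower. DESeq2 and limma-voom with sample weights also called 0 members at the adjusted threshold. In DESeq2 the unadjusted p of *Postn* was 0.0317, and in limma-voom that of *Fn1* was 0.0450, and these alone were under 0.05 there. In edgeR without the filter the unadjusted p was 0.0102 for *Postn* and 0.0364 for *Fn1*. Over all entries, 515 of 25539 were under 0.05 in DESeq2, 399 of 11616 in limma-voom and 957 of 25539 in edgeR without the filter. When edgeR was refitted with 1 mouse left out, *Postn* (0.00753) and *Tnxb* (0.0348) had an unadjusted p under 0.05 without Vehicle 4. Without Bexarotene 3 it was *Fn1* (0.00908), and without Bexarotene 4 *Pdgfra* (0.00878), *Dcn* (0.0183) and *Tnc* (0.0283). Members tested in these 3 fits numbered 34, 33 and 34. Over all entries, 375 of 12146 were under 0.05 without Vehicle 4, 914 of 11648 without Bexarotene 3 and 887 of 12454 without Bexarotene 4. In all 33 genes the 95% interval of the fold change held 0.

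Most members nevertheless had lower means with bexarotene. A positive log2 fold change (bexarotene over vehicle) was found in 9 members and a negative one in 24, where 46.5% of all entries were positive. The median log2 fold change was -0.22 over the members and -0.03 over all entries tested, and single values ran from -0.86 (*Mfap4*) to 0.42 (*Cthrc1*). This lean rested on Vehicle 2: without that mouse 16 of 33 members were positive and the median was -0.0011. Without Bexarotene 1 and 2 together, 15 members were positive, 21 were negative and the median was -0.08. When libraries were scaled by total counts alone, all 33 were negative, with a median of -0.78 against -0.66 for all entries, which is a difference of -0.11. Signs under that scaling, given below for single genes and lists, carry this shift of all entries. In 30 of the 33 genes the group means lay closer together than the larger of the SDs of the groups. In bulk tissue, fewer fibroblasts and less RNA per fibroblast cannot be told apart.

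**Figure D1:**
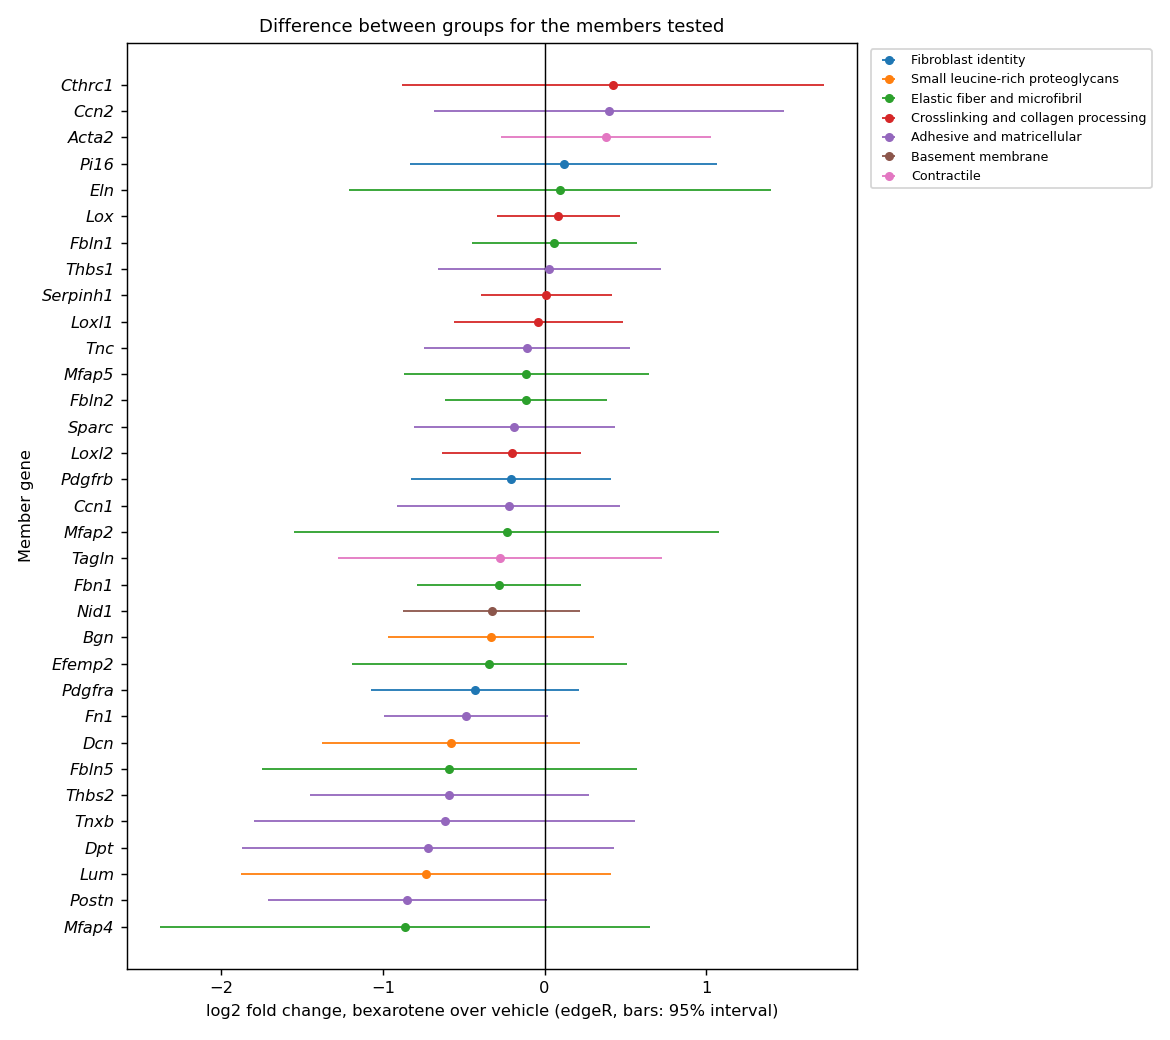
The x axis gives edgeR's log2 fold change of bexarotene over vehicle for each of the 33 members tested (points, colored by role) with its 95% interval (bars). The points lie between -0.86 and 0.42, and every interval crosses 0.

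The spread among mice was largely shared between members. By CPM (counts relative to the TMM-scaled library size), Vehicle 2 had the highest level of all 8 mice in 24 of the 33 genes and the highest of its group in 28. Vehicle 4 was the lowest vehicle-treated mouse in 24, and Bexarotene 2 was the lowest of all 8 in 14. Bexarotene 4 was the highest of its group in 16. TMM factors ran from 0.278 in Bexarotene 2 to 2.18 in Vehicle 1, so these ranks depend on that scaling. By TPM, *Sparc* was higher in Vehicle 1 (18.9) than in Vehicle 2 (15.1), and *Tnxb* was lower (0.893 against 1.15). As a share of protein-coding counts, the 38 genes stood at 0.470% in Vehicle 2 and at 0.395% in Vehicle 1. Between the highest and the lowest vehicle-treated mouse the CPM differed by a factor of 2.08 in the median gene, 1.07 in the tightest (*Tnc*) and 13.3 in the widest (*Eln*). Below all 4 vehicle-treated mice were 14 members in Bexarotene 1, 16 in Bexarotene 2, 9 in Bexarotene 3 and 4 in Bexarotene 4. The same held for 30.6%, 40.1%, 18.3% and 15.7% of all entries tested in those mice.

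**Figure D2:**
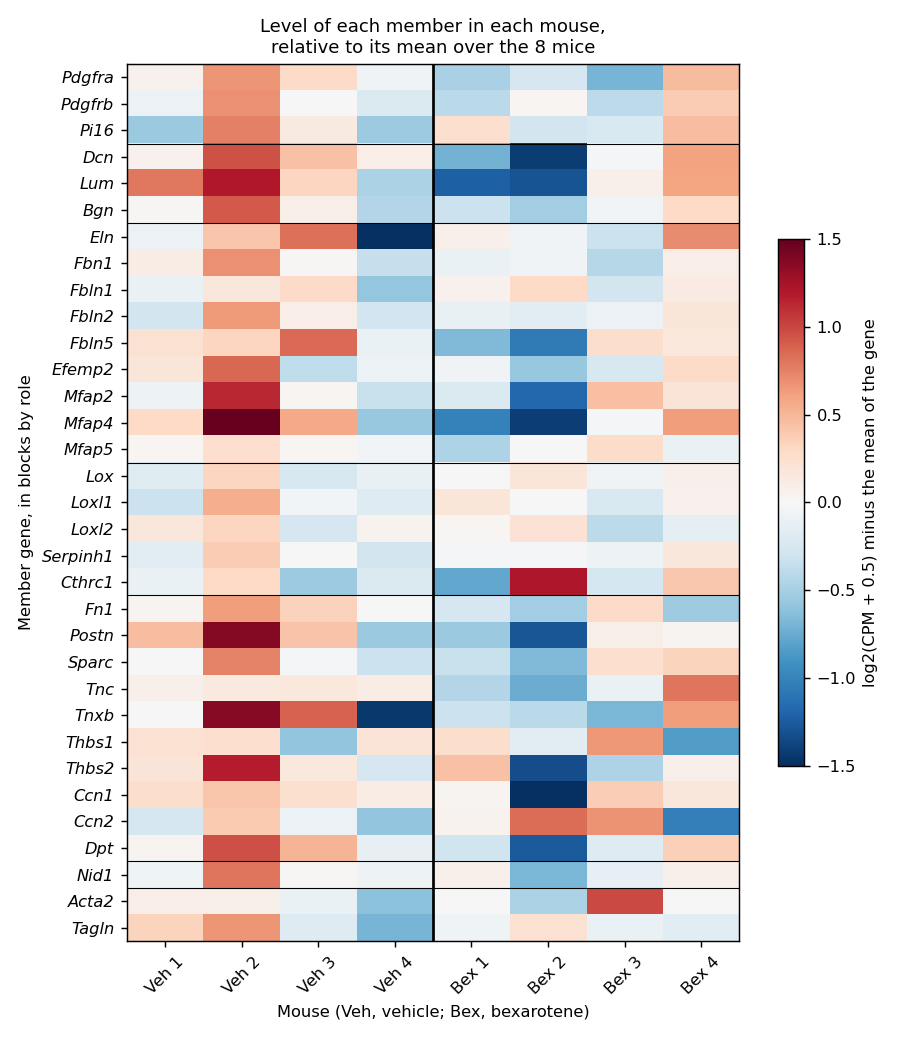
Rows are the 33 members tested, in blocks by role, columns are the 8 mice, and color gives log2(CPM + 0.5) minus the mean of that gene over the mice. The Vehicle 2 column is red in nearly every row, with the highest value in 24 of 33, and Bexarotene 2 is blue in many, with the lowest value in 14.

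Other tissue markers moved across the same mice. The mean log2(CPM + 1) of the 38 genes was 2.42, 2.94, 2.50 and 2.14 in the vehicle group and 2.23, 2.09, 2.38 and 2.53 in the bexarotene group. For the 7 keratinocyte markers it was 3.45, 4.61, 3.36 and 0.20 in the vehicle group and 2.36, 2.04, 3.37 and 2.95 in the bexarotene group. Both lists were highest in Vehicle 2, and within each group both were lowest in the same mouse, Vehicle 4 and Bexarotene 2. Summed over its genes, the keratinocyte list ran from 1.27 to 288 CPM with vehicle and from 32.5 to 88.8 CPM with bexarotene. The 6 adipocyte markers ran from 0.22 (Vehicle 4) to 1.43 (Vehicle 2) on the log2 scale with vehicle and from 0.36 (Bexarotene 2) to 1.27 (Bexarotene 3) with bexarotene. The 6 macrophage markers ran from 1.90 (Vehicle 4) to 3.44 (Vehicle 2) and from 2.00 (Bexarotene 3) to 2.51 (Bexarotene 4). The T-lineage list, whose genes the lymphoma can express, ran from 3.42 to 3.59 with vehicle and from 3.18 to 3.79 with bexarotene. The part of these contents in the levels of the matrix genes was not tested.

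**Figure D3:**
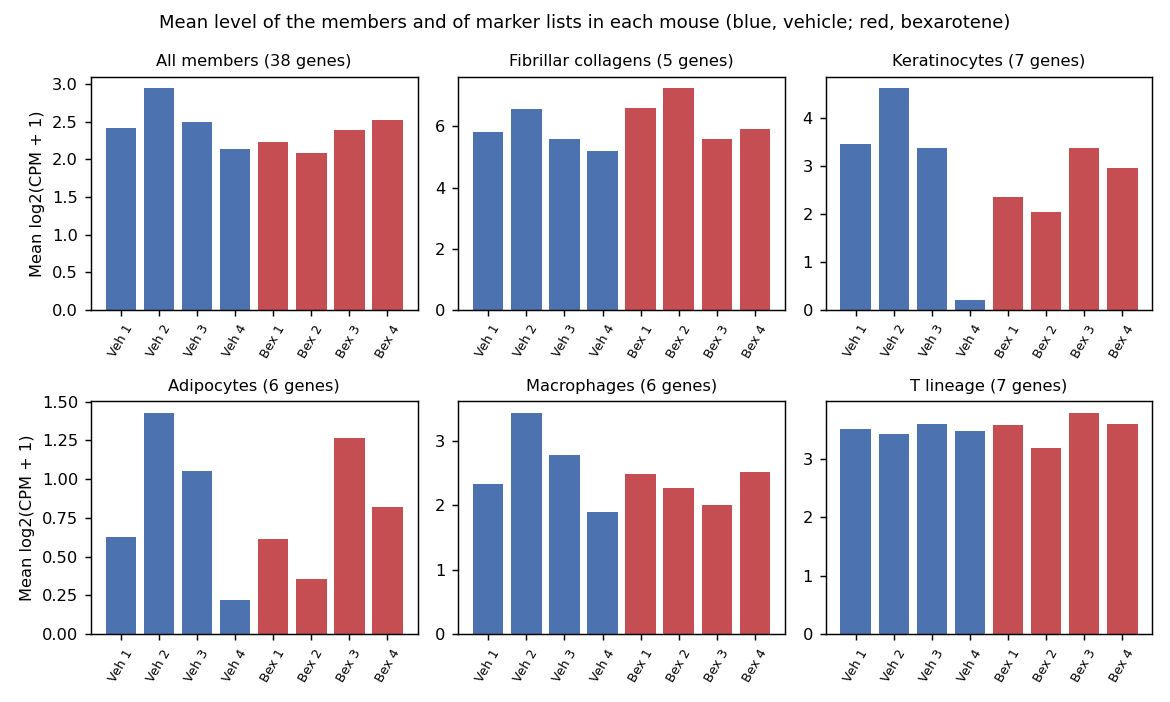
Bars give the mean log2(CPM + 1) of the genes of a list in each mouse (blue, vehicle and red, bexarotene), with a separate y axis from 0 for each list. The members and the keratinocyte, adipocyte and macrophage markers are highest in Vehicle 2 and lowest among vehicle-treated mice in Vehicle 4, while the T-lineage bars of the vehicle-treated mice lie between 3.42 and 3.59.

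Among genes of fibroblast identity, 3 of 6 were tested, 1 with a positive and 2 with a negative log2 fold change (median -0.21; without Vehicle 2 the median was 0.05). *Pdgfrb* encodes the second receptor for platelet-derived growth factor, found on fibroblasts and on pericytes. Its level was 4.61, 8.26, 4.97 and 4.19 CPM in the vehicle group and 3.63, 5.07, 3.64 and 6.603 CPM in the bexarotene group. Vehicle 2 was the highest, the other vehicle-treated mice lay inside the bexarotene range, and the log2 fold change was -0.21 (SE 0.28; 0.05 without Vehicle 2). *Pdgfra* is given in full because of its role as a fibroblast marker, a choice made after its values were seen, as were those of *Lum*, *Eln*, *Postn*, *Tnxb*, *Ccn2* and *Tagln* further on. *Pdgfra* stood at 6.43, 10.1, 7.59 and 5.89 CPM with vehicle and at 4.26, 5.07, 3.60 and 8.77 CPM with bexarotene. Bexarotene 1 to 3 lay below every vehicle-treated mouse and Bexarotene 4 above 3 of them, for a log2 fold change of -0.43 (SE 0.29), or -0.83 without Bexarotene 4 and -0.21 without Bexarotene 3. Counts of *Pdgfra* may include reads from 2 genes annotated on the other strand, since whether reads were counted by strand is not given in the sources used here. *Pi16*, a marker of a progenitor-like fibroblast state, averaged 1.73 CPM with vehicle and 1.77 CPM with bexarotene. The filter removed *Fap*, which encodes a protease of activated fibroblasts, *Twist2*, a transcription factor of dermal fibroblasts, and *Clec3b*, which encodes tetranectin. These had at most 12, 16 and 17 counts in any library. *Fap* was at 0 in Vehicle 4 and Bexarotene 2, and *Clec3b* in Bexarotene 1 and 2.

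The small leucine-rich proteoglycans had a median log2 fold change of -0.58, with 0 of 3 tested genes positive. The median was -0.34 without Vehicle 2, and without Bexarotene 1 and 2 together it was -0.085, with 1 of 4 positive. *Dcn* (chromosome 10, 97315471 to 97354005, GRCm39) was measured at 18.7, 35.1, 24.4 and 19.2 CPM in the vehicle group and at 10.7, 6.34, 17.7 and 27.3 CPM in the bexarotene group. Bexarotene 1, 2 and 3 lay below all vehicle-treated mice, Bexarotene 4 lay above 3 of them, and the log2 fold change was -0.58 (SE 0.36), or -0.97 without Bexarotene 4, -0.34 without Vehicle 2 and -0.092 without Bexarotene 1 and 2 together. In the shallow libraries these levels rest on 68 and 15 counts. *Lum* encodes lumican and lies close to *Dcn* on the same chromosome. It measured 3.44, 4.72, 2.35 and 1.14 CPM with vehicle and 0.473, 0.422, 1.90 and 2.92 CPM with bexarotene, and the log2 fold change was -0.73 (SE 0.52), or -1.26 without Bexarotene 4 and -0.40 without Vehicle 2. The lowest *Lum* values were again those of Bexarotene 1 and 2. *Bgn*, on chromosome X, encodes biglycan, a close relative of decorin. Levels of *Bgn* were 30.8, 57.9, 32.4 and 22.3 CPM in the vehicle group and 24.3, 21.1, 29.5 and 37.5 CPM in the bexarotene group. Apart from Vehicle 2 the groups covered about the same range, and the log2 fold change was -0.33 (SE 0.29), or -0.0011 without Vehicle 2. *Fmod*, which encodes fibromodulin, did not pass the filter, and its counts ran from 0 in Vehicle 4, Bexarotene 1 and Bexarotene 2 to 41 in Bexarotene 3.

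Ratios within a library do not depend on the scaling between libraries. The TPM ratio of *Bgn* to *Dcn* was 1.58, 1.58, 1.28 and 1.11 in the vehicle group and 2.17, 3.19, 1.595 and 1.32 in the bexarotene group. Bexarotene 1 and 2 had the highest ratios, so *Dcn* was low there relative to *Bgn* as well as relative to the whole library. The ratio of *Lox* to *Dcn* was 0.768, 0.585, 0.564 and 0.783 with vehicle and 1.53, 2.93, 0.887 and 0.633 with bexarotene. In the shallowest library, Bexarotene 2, that ratio comes from 36 and 15 counts. No test was made of these ratios.

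Of the 9 genes of the elastic fiber and its microfibrils, all tested, 2 had positive and 7 negative log2 fold changes, with a median of -0.23; without Vehicle 2, 5 were positive and 4 negative. *Fbln2* encodes fibulin-2, which binds fibrillin and tropoelastin. The gene read 9.67, 18.6, 12.7 and 9.54 CPM in the vehicle group and 10.9, 10.6, 11.1 and 13.5 CPM in the bexarotene group. All 4 bexarotene-treated mice lay inside the vehicle range, with a log2 fold change of -0.12 (SE 0.23; 0.13 without Vehicle 2). *Fbn1* encodes fibrillin-1, the core protein of microfibrils. Its values were 21.4, 32.1, 19.9 and 15.5 CPM with vehicle and 18.5, 19.0, 14.6 and 21.2 CPM with bexarotene. Apart from Vehicle 2 the groups overlapped closely, and the log2 fold change was -0.28 (SE 0.23; -0.05 without Vehicle 2). *Eln*, the gene of elastin itself, was far less abundant than *Fbn1*, with a mean of 0.192 TPM against 1.44 TPM. *Eln* came to 1.65, 2.54, 3.55 and 0.268 CPM in the vehicle group and to 1.89, 1.69, 1.33 and 3.21 CPM in the bexarotene group. Vehicle 4 was far below the rest at 8 counts, and the log2 fold change of 0.10 (SE 0.59) became -0.27 without that mouse, -0.30 without Bexarotene 4 and -0.30 when scaled by total counts alone.

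Among the remaining genes of the elastic fiber, *Fbln1* (fibulin-1) averaged 6.36 ± 1.68 CPM (SD, n = 4) with vehicle and 6.78 ± 1.16 CPM (SD, n = 4) with bexarotene. *Efemp2*, which encodes fibulin-4, needed for elastic fiber assembly, averaged 1.83 and 1.35 CPM. *Fbln5*, the gene of fibulin-5, and the genes of the microfibril-associated proteins *Mfap2*, *Mfap4* and *Mfap5* averaged from 0.836 to 1.59 CPM with vehicle and from 0.392 to 0.799 CPM with bexarotene. In Bexarotene 2, *Fbln5*, *Mfap2* and *Mfap4* were at 0 counts, in a library with 585 counts over all members. *Mfap4* had the most negative log2 fold change of any member, -0.86 with a 95% interval from -2.38 to 0.65. It was -0.21 without Vehicle 2, whose 3.33 CPM was the highest value, and -1.59 without Bexarotene 4.

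Genes of crosslinking and collagen processing had a median log2 fold change of 0.01, with 3 of 5 tested genes positive, although 0 of 5 were positive when scaled by total counts alone. *Lox* encodes lysyl oxidase, which crosslinks collagen and elastin. Values for *Lox* were 11.7, 16.8, 11.3 and 12.3 CPM in the vehicle group and 13.4, 15.2, 12.9 and 14.2 CPM in the bexarotene group. Vehicle 1, 3 and 4 lay below every bexarotene-treated mouse and Vehicle 2 above them all, with a log2 fold change of 0.09 (SE 0.17; 0.23 without Vehicle 2, and -0.58 when scaled by total counts alone). *Serpinh1* encodes HSP47, a chaperone of procollagen in the endoplasmic reticulum. *Serpinh1* held at 8.82, 13.0, 9.88 and 8.07 CPM with vehicle and at 9.62, 9.71, 9.31 and 11.2 CPM with bexarotene. The group means were 9.95 ± 2.18 and 9.96 ± 0.832 CPM (SD, n = 4 each), and the log2 fold change of 0.01 had a 95% interval from -0.40 to 0.42, and it was -0.59 when scaled by total counts alone. Other lysyl oxidases gave 5.26 and 5.14 CPM (*Loxl1*) and 8.44 and 7.59 CPM (*Loxl2*) as means with vehicle and with bexarotene. *Loxl2* shares 943 exonic bases with *R3hcc1* on the other strand, so part of its count is uncertain. *Cthrc1*, a marker of fibroblasts activated in injured tissue, had the most positive log2 fold change of the members, 0.42 with a 95% interval from -0.88 to 1.73, and it was 0.08 without Bexarotene 2 and 0.78 without Bexarotene 1. Its highest level, 2.11 CPM in Bexarotene 2, rests on 5 counts. *Pcolce* had at most 2 counts in any library and did not pass the filter.

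**Figure D4:**
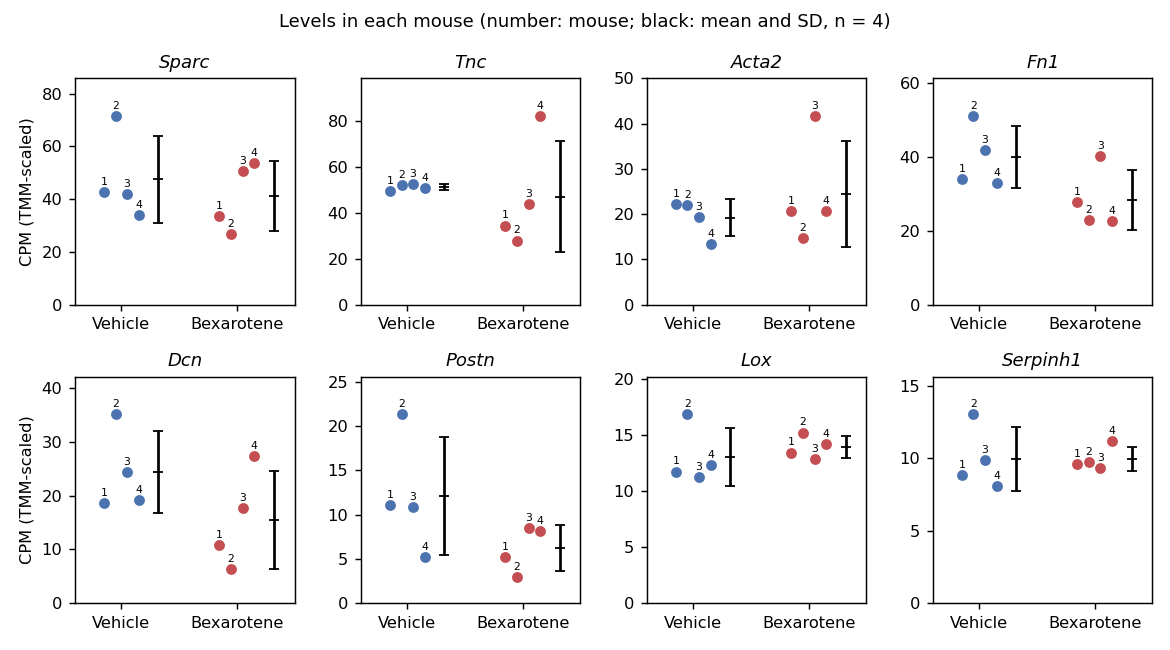
Points give the level of 8 members in each mouse as CPM on linear y axes from 0, numbered by mouse, with the mean and SD of each group (n = 4) in black. *Dcn*, *Fn1* and *Postn* have lower means with bexarotene but overlap with vehicle, *Tnc* is tight only with vehicle, and *Lox* and *Serpinh1* have means of 13.0 and 9.95 CPM with vehicle and of 13.9 and 9.96 CPM with bexarotene.

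Adhesive and matricellular genes made up 41.2% to 50.6% of the members' counts in every mouse. Of 10 tested genes, 2 had positive and 8 negative log2 fold changes, with a median of -0.35 (-0.15 without Vehicle 2). *Postn* encodes periostin, a matricellular protein that fibroblasts make in wounds and tumors, and had the smallest unadjusted p of all members. Its level was 11.0, 21.3, 10.8 and 5.22 CPM in the vehicle group and 5.21, 2.96, 8.43 and 8.16 CPM in the bexarotene group. Vehicle 4 stood at the level of Bexarotene 1 and below Bexarotene 3 and 4, and the other 3 vehicle-treated mice lay above every bexarotene-treated mouse. By edgeR the log2 fold change was -0.85 (SE 0.39, unadjusted p = 0.0537, adjusted p = 0.976), and it ranged from -1.09 without Vehicle 4 to -0.43 without Vehicle 2. Relative to *Sparc* in the same library, the TPM of *Postn* was 0.113, 0.130, 0.112 and 0.0672 with vehicle and 0.0674, 0.0484, 0.0724 and 0.0661 with bexarotene. The ratio in Vehicle 4 lay within the bexarotene range and the ratios of the other 3 vehicle-treated mice above it.

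*Fn1* encodes fibronectin, which cells assemble into fibrils and bind through integrins. *Fn1* was found at 33.9, 51.0, 41.8 and 32.9 CPM in the vehicle group and at 27.6, 22.8, 40.1 and 22.6 CPM in the bexarotene group. Bexarotene 1, 2 and 4 were below every vehicle-treated mouse, and Bexarotene 3 lay inside their range. The log2 fold change was -0.48 (SE 0.23, edgeR unadjusted p = 0.0596, adjusted p = 0.976), with values from -0.69 without Bexarotene 3 to -0.34 without Vehicle 2. *Sparc*, with the highest mean TPM of the members, encodes a collagen-binding protein also known as osteonectin. It had 42.6, 71.5, 41.9 and 33.9 CPM with vehicle and 33.6, 26.6, 50.7 and 53.7 CPM with bexarotene. Bexarotene 3 and 4 lay above 3 of the vehicle-treated mice and Bexarotene 1 and 2 below all of them, for a log2 fold change of -0.19 (SE 0.28; 0.08 without Vehicle 2 and 0.16 without Bexarotene 1 and 2 together).

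*Tnc* encodes tenascin-C, which is induced in wounds and tumor stroma. With vehicle it was nearly the same in each mouse, at 49.4, 52.2, 52.6 and 50.8 CPM, or 51.3 ± 1.46 CPM (SD, n = 4). With bexarotene it ran over 34.4, 27.9, 43.7 and 82.1 CPM in mice 1 to 4, or 47.0 ± 24.3 CPM (SD, n = 4). Bexarotene 1 to 3 lay below every vehicle-treated mouse and Bexarotene 4 above all of them, and the log2 fold change was -0.11 (SE 0.29), or -0.50 without Bexarotene 4 and 0.06 without Bexarotene 2. *Tnc* did not share the high value of other members in Vehicle 2. *Tnxb* encodes tenascin-X, which links collagen fibrils in the dermis. Its CPM values were 7.37, 19.9, 14.1 and 2.41 in the vehicle group and 5.84, 5.49, 4.42 and 11.7 in the bexarotene group. The vehicle-treated mice spanned both the highest and the lowest level of the 8, with a log2 fold change of -0.62 (SE 0.54), or -0.15 without Vehicle 2 and -1.07 without Bexarotene 4.

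*Thbs1* encodes thrombospondin-1, which can activate latent TGF-beta. *Thbs1* gave 14.6, 14.9, 8.03 and 14.3 CPM with vehicle and 14.99, 11.0, 19.7 and 6.70 CPM with bexarotene. Bexarotene 3 was the highest and Bexarotene 4 the lowest of the 8 mice, and the log2 fold change was 0.03 (SE 0.31; -0.26 without Bexarotene 3, 0.29 without Bexarotene 4 and -0.64 when scaled by total counts alone). *Ccn2*, which encodes connective tissue growth factor, is like *Ccn1* a target of YAP and of TGF-beta. It was present at 1.31, 2.34, 1.53 and 0.938 CPM with vehicle and at 1.74, 3.38, 2.96 and 0.566 CPM with bexarotene. Bexarotene 2 and 3 lay above all vehicle-treated mice and Bexarotene 4 below them, for a log2 fold change of 0.40 (SE 0.49), or -0.01 without Bexarotene 3, 0.82 without Bexarotene 4 and -0.15 when scaled by total counts alone. *Ccn1*, whose TEAD motif is printed above, averaged 2.84 ± 0.297 CPM with vehicle and 2.13 ± 1.18 CPM with bexarotene (SD, n = 4 each), the latter including 0.422 CPM in Bexarotene 2. *Thbs2*, the gene of thrombospondin-2, averaged 5.47 and 3.43 CPM with vehicle and bexarotene. *Dpt*, which encodes dermatopontin, a decorin-binding protein of the dermis, averaged 1.10 and 0.514 CPM.

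*Nid1* was the only basement membrane gene among the members. It encodes nidogen-1, which connects laminin and type IV collagen. *Nid1* was counted at 9.37, 17.6, 9.94 and 9.28 CPM in the vehicle group and at 10.4, 5.91, 8.97 and 10.4 CPM in the bexarotene group. The groups overlapped apart from a high Vehicle 2 and a low Bexarotene 2, with a log2 fold change of -0.33 (SE 0.25), which was -0.05 without Vehicle 2.

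The 2 contractile genes had log2 fold changes of opposite sign, each within its error, and both were negative when scaled by total counts alone. *Acta2* (chromosome 19, 34218490 to 34232990, GRCm39) encodes smooth muscle actin. Its level was 22.2, 22.0, 19.3 and 13.4 CPM in the vehicle group and 20.7, 14.8, 41.7 and 20.8 CPM in the bexarotene group. Bexarotene 3 alone stood above the vehicle range, and the log2 fold change was 0.38 (SE 0.30). Without Bexarotene 3 it was 0.0048, when scaled by total counts alone -0.04, and without Bexarotene 1 and 2 together 0.71 (edgeR unadjusted p = 0.0489, adjusted p = 0.9999). In that last fit 200 of 13333 entries had an unadjusted p under 0.05. *Tagln* encodes transgelin, an actin-binding protein of smooth muscle and of contractile fibroblasts. It reached 1.41, 1.89, 0.819 and 0.435 CPM with vehicle and 0.947, 1.27, 0.918 and 0.849 CPM with bexarotene. All 4 bexarotene-treated mice lay inside the vehicle range, and the log2 fold change was -0.28 (SE 0.46; 0.04 without Vehicle 2). *Tagln* shares 1241 exonic bases with a noncoding gene and 123 with *Pcsk7* on the other strand, and *Acta2* shares none. The high *Acta2* of Bexarotene 3 was not matched by *Tagln*, and that mouse also had the highest skeletal muscle markers (3.17 on the mean log2(CPM + 1) scale, against 0.48 to 1.95 in the other 7 mice). The summed level of the 4 skeletal muscle markers in the table was 43.6 CPM in Bexarotene 3 and at most 12.6 CPM elsewhere. Pericyte and smooth muscle markers stood at 1.51 in Bexarotene 3, inside the range of the vehicle-treated mice from 1.23 to 1.85. The part of muscle tissue in the *Acta2* value was not tested.

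**Figure D5:**
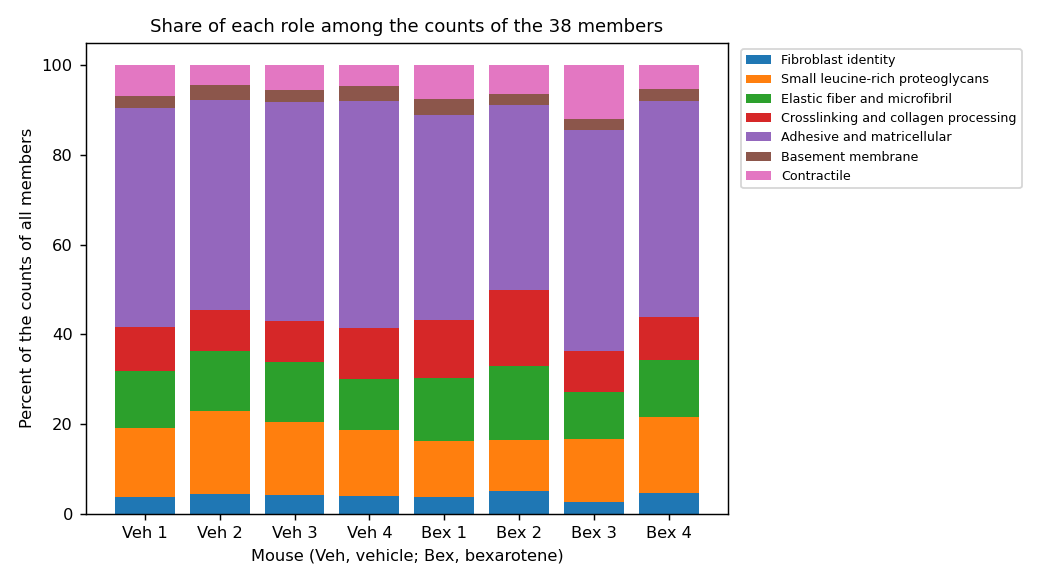
Stacked bars give the percent of the counts of all 38 members that each role took in each mouse, from 585 counts in Bexarotene 2 to 17383 in Vehicle 1. Adhesive and matricellular genes take 41.2% to 50.6% in every mouse, while crosslinking and collagen processing genes reach 12.9% and 16.9% in Bexarotene 1 and 2 against at most 11.5% elsewhere.

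The composition of the members differed in the shallow pair. Crosslinking and collagen processing genes took 9.88%, 9.15%, 9.01% and 11.5% of the members' counts in the vehicle group and 12.9%, 16.9%, 9.18% and 9.66% in the bexarotene group. Small leucine-rich proteoglycans took 14.7% to 18.5% with vehicle and 12.3%, 11.3%, 14.1% and 16.9% in the bexarotene group. Bexarotene 1 and 2 thus had the largest crosslinking and the smallest proteoglycan share of the 8 mice. In the same mice the 5 fibrillar collagen genes had 317% and 705% of the members' counts, against 90.2% to 149% in the other 6. For both the crosslinking and the collagen values, Bexarotene 3 and 4 lay within the vehicle range. Bexarotene 1 and 2 also had the lowest shares of protein-coding counts, 6.35% and 4.02%. Depth, that share and treatment cannot be told apart in these 2 mice, since no vehicle-treated library was as shallow.

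The other genes of the pathway were given by lists. The 5 fibrillar collagens were all positive (median 0.60), but 4 of 5 were negative without Bexarotene 1 and 2 together. Scaled by total counts alone, all 5 were negative (median -0.39), where the median over all entries was -0.66. *Col1a1*, the most abundant, stood at 214, 436, 214 and 128 CPM with vehicle and at 537, 1184, 204 and 259 CPM with bexarotene (log2 fold change 1.14, SE 0.55). Bexarotene 1 and 2 alone were above the vehicle range. Among 17 other proteoglycan and matrix genes 12 were tested, 2 positive and 10 negative (median -0.17), but 8 positive and 4 negative without Vehicle 2 (median 0.04), and *Thy1*, the most abundant of them by mean TPM, as such genes are ranked in all these lists, and also a T-cell gene, averaged 102 and 106 CPM. *Ogn*, which encodes osteoglycin, missed the filter and had an unadjusted p of 0.0266 without it, with 11, 18, 11 and 6 counts in the vehicle group and 0, 0, 7 and 0 in the bexarotene group. *Omd* (osteomodulin) had 3 counts in all, which allows no comparison, although its unadjusted p without the filter was 0.0296. *Vim*, the gene of vimentin, chosen after its values were seen, did not overlap between the groups, with 58.0 to 63.4 CPM with vehicle and 64.9 to 75.5 CPM with bexarotene (log2 fold change 0.19, SE 0.16, edgeR adjusted p = 0.976). Of all entries tested, 1.41% were likewise higher in every bexarotene-treated mouse. *Vim* is expressed by lymphoid cells as well as by fibroblasts. *Aspn*, also chosen after its values were seen, missed the filter and went the other way. It had 0.218 to 0.597 CPM with vehicle and 0 to 0.204 CPM with bexarotene, from 14, 12, 4 and 9 against 1, 0, 6 and 3 counts.

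Of the PDGF ligands, 3 of 4 were tested and all 3 were positive (median 0.32), of which 1 remained positive when scaled by total counts alone. *Pdgfa*, the most abundant, averaged 0.572 and 1.25 CPM. TGF-beta ligands, receptors and Smads gave 5 positive and 4 negative of 9 tested (median 0.05, but -0.11 without Bexarotene 1, and 0 positive when scaled by total counts alone), with *Tgfb1* the most abundant at 23.4 ± 1.92 and 26.5 ± 1.98 CPM (SD, n = 4 each). Fibronectin-binding integrins gave 3 positive and 2 negative of 5 (median 0.20, and 0 positive when scaled by total counts alone), and *Itgb1*, which encodes the shared beta-1 chain, averaged 6.15 and 5.26 CPM. YAP and TEAD genes gave 1 positive and 5 negative of 6 tested (median -0.26), but 5 positive without Vehicle 2 (median 0.22) and 4 positive both in limma-voom and without Bexarotene 1 and 2 together, with the coactivator gene *Wwtr1* at 2.25 and 1.58 CPM. In these lists 0 genes had an adjusted p under 0.05 by edgeR, and 0 of the genes tested had an unadjusted p under 0.05.

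Marker lists of other cells were compared in the same way. Keratinocyte genes gave 1 positive and 6 negative of 7 (median -0.84, and -0.08 without Vehicle 2), but 4 positive and 3 negative in limma-voom (median 0.36). *Krt10*, the most abundant, was at 23.7, 93.5, 31.5 and 0 CPM in the vehicle group. With bexarotene it was at 6.63, 7.18, 20.6 and 29.3 CPM, all inside the vehicle range. Macrophage genes gave 6 negative of 6 (median -0.43), of which 4 were positive without Vehicle 2. *Mrc1*, the macrophage mannose receptor gene, had 7.45, 11.5, 10.5 and 6.998 CPM with vehicle and 4.58, 2.53, 5.20 and 8.11 CPM with bexarotene (log2 fold change -0.72, SE 0.28, edgeR unadjusted p = 0.0266, adjusted p = 0.976), and *Cd68*, the most abundant by TPM, averaged 6.82 and 4.28 CPM. Skeletal muscle genes gave 4 positive of 4 (median 0.83), but 2 positive and 2 negative without Bexarotene 3 (median -0.05), and *Myh4*, a fast myosin gene, had 23.8 CPM in Bexarotene 3 and at most 5.05 CPM in the other mice (edgeR unadjusted p = 0.0244, adjusted p = 0.976). *Tnnt3*, a troponin gene and the most abundant of that list, averaged 2.70 and 3.35 CPM. Adipocyte genes gave 2 positive and 2 negative of 4 tested (median 0.04, but 0 positive and a median of -0.61 without Bexarotene 3), with *Cfd* (adipsin) the most abundant at 2.08 and 2.13 CPM. Endothelial genes gave 3 positive and 1 negative of 4 (median 0.05, and -0.11 without Bexarotene 3), pericyte and smooth muscle genes 1 and 3 of 4 (median -0.19, but 3 positive and a median of 0.11 without Vehicle 2), and T-lineage genes 6 and 1 of 7 (median 0.19, and 1 positive when scaled by total counts alone). When scaled by total counts alone, 0 adipocyte, 0 endothelial and 0 pericyte and smooth muscle genes were positive, and the 4 skeletal muscle genes were still so. By TPM, the most abundant genes of the endothelial, pericyte and T-lineage lists were *Cdh5*, the gene of vascular cadherin, at 6.35 and 4.84 CPM, *Des*, the gene of desmin, at 8.59 and 6.63 CPM, and *Thy1*. *Cdh5* was the 1 negative gene of the endothelial list (log2 fold change -0.29). *Pecam1*, of the same list and also at 1.26 TPM, averaged 9.47 and 9.82 CPM (log2 fold change 0.06).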

How the data were processed

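The authors deposited 1 table of whole-number counts per gene for 8 libraries, unscaled and unfiltered, beside the length of each gene. The labels name ribosomal RNA exclusion and a directional library kit. The ribosomal RNA gene *Rn18s* still held 50.8% to 59.8% of the counts of a library and was kept in library sizes and in TPM. According to the submitters' processing notes, reads were trimmed with Trimmomatic 0.30, checked with FastQC 0.11.9, aligned to GRCm39 with HISAT2 2.0.1 (another version in the methods) and counted with HTSeq 0.6.1, and DESeq2 was used. Whether reads were counted by strand is not given in the sources used here. Of the 38 members, 21 share exonic bases with a GENCODE gene on the other strand, so that reads of either could enter those counts. Among them are *Fbn1* (2442 bases), *Ccn2* (1164), *Thbs1* (511 and 208, with 2 genes), *Fn1* (429) and *Eln* (423). Unnamed transcribed regions (1728 entries, 24.1% to 28.8% of counts in a library) were kept in library sizes and tests.

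Groups came from the labels. The software was edgeR 4.0.16, DESeq2 1.42.0 and limma 3.58.1 under R 4.3.3. Entries were kept by filterByExpr (minimum count 10, minimum total 15), scaled by TMM and compared between the groups, with no covariate, by the quasi-likelihood test of edgeR over all entries, at Benjamini-Hochberg adjusted p-values and a threshold of 0.05. Members removed by the filter were fitted without it. CPM uses effective library sizes, and TPM uses the deposited counts and lengths. The p-values judge the difference between the groups against the spread between mice of a group. A chi-square comparison of library pairs showed no duplicate. The fit was also run on simulated data, and the outcome of that run is not given here.

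The members and lists were chosen with earlier results of these data known. Values in every mouse are given for members past a threshold or not overlapping (there were none), the 12 most abundant by TPM and the most abundant of each role, and for 7 more chosen after their values were seen. From other lists the most abundant gene and those with an unadjusted p under 0.05 are given, as are *Vim* and *Aspn*, whose groups did not overlap. *Acta1*, on the skeletal muscle list, did not match an entry. A gene of the TGF-beta list is not reported here. Alternatives were RLE scaling, total counts as the only scaling, no filter, DESeq2, limma-voom with sample weights, protein-coding genes only, a replicate block, and leaving out each mouse or Bexarotene 1 and 2 together. Motifs were searched in RefSeq promoter windows of GRCm38.p6, and figures were drawn with matplotlib.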

Additional observations from a re-analysis of the deposited data

Results flagged for a closer look

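Among the members whose value is given in every mouse, 40 sets of 4 mice were checked for a mouse whose gap to the next was a larger share of the range of its group than Dixon's 95% critical value, a limit that chance passes in about 1 of 20 sets. It was passed by 2 sets. *Thbs1* was 8.03 CPM in Vehicle 3, far below the other vehicle-treated mice. *Nid1* was 17.6 CPM in Vehicle 2, far above the other vehicle-treated mice.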

How the results depend on the processing

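Under every alternative 0 members passed the adjusted threshold, and DESeq2 called 3 genes in all, none of them members. Leaving out each mouse gave medians of the members from -0.33 to -0.0011, between 6 and 16 members with a higher mean and between 0 and 4 whose groups did not overlap (*Dcn*, *Dpt*, *Pdgfra* and *Tnc* without Bexarotene 4, *Fn1* without Bexarotene 3, *Postn* without Vehicle 4, *Lox* without Vehicle 2). The share of all entries that separated with a mouse left out was not computed. Groups of fewer mice separate more often by chance, so these counts have no background here. Scaled by total counts alone, the median was -0.78, against -0.66 over all entries, and 0 members had a higher mean. The log2 fold change was then -0.30 for *Eln*, -0.58 for *Lox*, -0.59 for *Serpinh1*, -0.64 for *Thbs1*, -0.15 for *Ccn2* and -0.035 for *Acta2*. Without Bexarotene 1 and 2 together 15 members had a higher mean, with *Sparc* at 0.16 and *Tnc* at 0.31. Without the filter *Serpinh1* was -0.022 and *Thbs1* -0.0084. In limma-voom *Fbln2* was 0.099, *Thbs1* -0.18 and *Ccn2* -0.016. Leaving out each mouse, values ran from -0.064 to 0.17 for *Serpinh1*, -0.45 to 0.054 for *Pdgfrb*, -0.21 to 0.13 for *Fbln2*, -0.32 to 0.078 for *Sparc*, -0.54 to 0.045 for *Tagln*, -0.26 to 0.29 for *Thbs1*, -0.30 to 0.51 for *Eln*, -0.50 to 0.065 for *Tnc* and -0.010 to 0.82 for *Ccn2*. The cause of these changes was not tested. RLE scaling and protein-coding genes only kept the sign of every member they tested.

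The replicate numbers were taken to name the mice only. Same-numbered mice did not deviate together (r = -0.077, -0.090, -0.073 and 0.0015 across genes, and 0 of 4 correlated best with its own number). These values do not show what the numbers stand for. With a replicate block the median was -0.16, 11 members were higher and 22 lower, 0 were called, and *Thbs1* was -0.037 and *Tagln* 0.058. Depth limits the rarer members: 18 of 38 had at least 10 counts in Bexarotene 2.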
